A study of Mus musculus with 29 samples.

Results

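The enzymes that build fatty acids and assemble them into triglyceride were described in 3T3-L1 cells, a mouse embryonic fibroblast line that becomes adipocytes in hormone-containing medium. A list of 35 gene symbols was matched to the Ensembl identifiers of the count table, and 34 of them were among its 11959 genes. Mlxipl was not analysed here. The list was drawn up by function and not by fold change, though with earlier results of these data known. The cells received 10 µM KDM5-C70 (C70), an inhibitor of the KDM5 lysine demethylases that remove methyl groups from lysine 4 of histone H3, or DMSO alone as vehicle. Both were given to confluent preadipocytes from day -2 to day 0. Differentiation medium followed from day 0 to day 2 and adipocyte medium thereafter, in both arms alike. RNA was collected at day 0, day 1, day 2 and day 7, in 3 vehicle and 4 C70 samples at each of days 0, 1 and 2, and in 4 samples of each arm at day 7. The 3T3-L1 line is clonal and the cells were grown in culture, and the labels do not say whether replicates came from separate cultures, so p values measure only the spread between these samples.

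Lipogenesis starts from citrate, which leaves the mitochondrion through Slc25a1 and is split by Acly into cytosolic acetyl-CoA. Acaca carboxylates acetyl-CoA, Fasn condenses the product into palmitate with NADPH as the reductant, and elongases and desaturases then lengthen the chain and insert double bonds. Gpd1 supplies the glycerol backbone, to which Gpam and the Agpat enzymes add acyl groups, from which the Lpin enzymes remove the phosphate, and to which the Dgat enzymes add the last acyl group to give triglyceride, the storage lipid of adipocytes.

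Sample totals lay between 16320275 and 24037170 counts, and levels are given as CPM, the count relative to a sample total that was scaled by the trimmed mean of M values (TMM). Day 7 vehicle replicate 1 stood apart from its group across all genes, with a root mean square log2 distance of 0.366 against 0.144 to 0.25 in the other 28 samples. All samples carried the label adipocyte, yet Adipoq, the adipocyte hormone adiponectin, was at 0.186 to 0.403 CPM in the day 0 vehicle samples and at 1225 to 1620 CPM in those of day 7. Of the marker lists for other cell types, none of 5 endothelial markers was in the table, and 1 of 6 macrophage markers (Cd68), 1 of 5 muscle markers (Des) and 2 of 6 epithelial and hepatocyte markers (Alb and Apoa1) were. Cd68 was at 1.13 to 1.67 CPM in day 0 vehicle and 18.7 to 19.8 CPM in day 0 C70, and was higher in C70 at day 0 (log2 3.85 ± 0.15), day 1 (2.90 ± 0.14) and day 2 (2.06 ± 0.16). Des was at 1.83 to 10.0 CPM up to day 2 and 35.3 to 50.9 CPM at day 7 over both arms, and was higher in C70 at day 0 (0.86 ± 0.12), day 1 (1.51 ± 0.15) and day 2 (0.47 ± 0.14). Alb and Apoa1 were higher in C70 at day 1 only, by 1.22 ± 0.27 and 1.03 ± 0.23, and summed there to 72.7 to 78.6 CPM in vehicle and 109 to 267 in C70. None of these 4 genes was called at day 7. Their part in the results was not tested.

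Upstream windows are printed for the members on which the account turns: Thrsp, which had the largest fall at day 2, Fasn, Acly and Acss2 as core enzymes that fell at day 2, and Lpin3, the member that was higher at day 2. Each window runs from 250 bases before to 50 bases after a start site in RefSeq on GRCm38.p6, 5′ to 3′ on the gene's own strand, and capitals mark the CCAAT box, the GC box with the letters GGGCGG and the E-box with the letters CACGTG, on either strand. The Thrsp window is chr7:97417501-97417800 (minus strand), that of Fasn chr11:120824498-120824797 (minus), that of Acly chr11:100527951-100528250 (minus) and that of Acss2 chr2:155517793-155518092 (plus). Lpin3 has 2 start sites in this table, at chr2:160880420-160880719 (upstream) and chr2:160887918-160888217 (downstream), both on the plus strand.
Thrsp: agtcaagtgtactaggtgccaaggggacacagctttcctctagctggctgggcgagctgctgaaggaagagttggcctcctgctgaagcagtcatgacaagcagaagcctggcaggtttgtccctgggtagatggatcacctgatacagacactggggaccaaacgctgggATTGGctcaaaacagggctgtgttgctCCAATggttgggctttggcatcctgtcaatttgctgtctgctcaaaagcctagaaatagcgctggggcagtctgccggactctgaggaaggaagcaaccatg
Fasn: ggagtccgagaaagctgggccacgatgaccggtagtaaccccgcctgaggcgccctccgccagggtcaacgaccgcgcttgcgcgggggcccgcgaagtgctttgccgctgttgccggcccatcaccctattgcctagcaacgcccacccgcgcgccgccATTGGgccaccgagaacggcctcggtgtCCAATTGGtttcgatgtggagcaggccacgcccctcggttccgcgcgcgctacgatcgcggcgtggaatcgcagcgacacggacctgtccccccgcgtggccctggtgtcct
Acly: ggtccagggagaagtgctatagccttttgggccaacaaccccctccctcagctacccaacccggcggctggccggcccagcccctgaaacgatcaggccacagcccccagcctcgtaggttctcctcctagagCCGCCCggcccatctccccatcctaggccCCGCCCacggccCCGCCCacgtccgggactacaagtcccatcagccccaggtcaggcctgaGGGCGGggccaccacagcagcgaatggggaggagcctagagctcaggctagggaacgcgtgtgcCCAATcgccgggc
Acss2: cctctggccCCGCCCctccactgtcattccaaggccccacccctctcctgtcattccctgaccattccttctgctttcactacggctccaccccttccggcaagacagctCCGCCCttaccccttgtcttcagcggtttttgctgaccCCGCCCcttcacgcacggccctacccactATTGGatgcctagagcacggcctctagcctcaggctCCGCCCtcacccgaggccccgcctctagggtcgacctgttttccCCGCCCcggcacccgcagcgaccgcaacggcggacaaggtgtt
Lpin3 upstream: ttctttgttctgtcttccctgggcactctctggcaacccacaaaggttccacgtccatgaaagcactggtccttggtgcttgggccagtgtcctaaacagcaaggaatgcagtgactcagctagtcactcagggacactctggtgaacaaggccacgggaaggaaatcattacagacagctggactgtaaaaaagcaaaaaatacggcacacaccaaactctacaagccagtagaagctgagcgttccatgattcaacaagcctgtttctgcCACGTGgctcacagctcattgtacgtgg
Lpin3 downstream: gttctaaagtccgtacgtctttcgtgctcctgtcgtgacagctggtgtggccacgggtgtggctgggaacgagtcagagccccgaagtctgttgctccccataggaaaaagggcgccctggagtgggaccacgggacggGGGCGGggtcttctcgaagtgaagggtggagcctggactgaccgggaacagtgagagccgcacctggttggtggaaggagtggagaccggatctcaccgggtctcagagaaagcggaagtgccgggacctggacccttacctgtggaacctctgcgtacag
Thrsp and Fasn carried CCAAT without a GC box, Acly and Acss2 carried both, and the upstream Lpin3 window carried the E-box. Windows were found for 28 members (36 windows). They were set beside all 32851 promoter windows, which belong to 27025 genes and are not limited to those of the count table. CCAAT was in 52.8% of the members' windows and in 37.4% of all windows, and GGGCGG was in 61.1% and 35.7%. CACGTG was in 13.9% and 7.15%, TTGCNNAA (C/EBP-like) in 13.9% and 10.8%, and TCACNCCAC (sterol response-like) in 2.78% and 1.24%. Of the 21 members that fell at day 2, 16 had a window, and Scd1, Scd2, Dgat1, Dgat2 and Gpd1 are left out of these shares. Over the 18 windows of those 16, CCAAT was in 61.1%, GGGCGG in 55.6%, CACGTG in 11.1%, TTGCNNAA in 5.56% and TCACNCCAC in 5.56%. The 18 windows of the other members held them at 44.4%, 66.7%, 16.7%, 22.2% and 0%. Matches were sought on both strands, CACGTG reads the same on either, TCACNCCAC can overlap it by 3 bases, and a match describes letters only.

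The first question was how the pathway is built up without the inhibitor. Between day 0 and day 7 of vehicle, 28 of 34 members rose (36.7% of all genes) and 3 fell (36.7% of all genes), with DEG here meaning an adjusted P under 0.05 in edgeR's quasi-likelihood test and a log2 fold change beyond 0.322 in either direction. The members' median log2 difference was 2.52 against 0.01 over all genes. Their summed level went from 3924 ± 124 CPM (SD, n = 3) to 55870 ± 3324 (n = 4). Within these sums Scd1 alone went from a mean of 211 CPM to 30454. In bulk samples, more cells of a type and more RNA per cell cannot be told apart.

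The rise came in steps that differed by role. At day 1, 15 members were higher than at day 0 (26.2% of all genes) and 7 were lower (27.9%). Glycerolipid assembly held 8 of the 15 higher members. Dgat2, which adds the last acyl group of triglyceride, went from 5.76, 6.75 and 6.96 CPM to 100.3, 109 and 86.3, and Acsl1, an acyl-CoA synthetase, from 32.1, 35.2 and 31.3 to 629, 713 and 580.2. None of the 4 genes of carbon and NADPH supply was called at that time. The desaturases of the Fads family moved the other way, and Fads1 fell by 1.95 ± 0.07 (SE) on the log2 scale, Fads2 by 1.81 ± 0.06 and Fads3 by 1.05 ± 0.05.

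From day 1 to day 2, 27 members rose (22.3% of all genes) and 4 fell (22%). All 4 supply genes and all 3 of fatty acid synthesis were among those that rose. Acss2, which activates acetate, rose by 2.00 ± 0.08, Slc25a1 by 2.11 ± 0.08, and Me1, the NADPH-producing malic enzyme, by 2.05 ± 0.06. From day 2 to day 7, 23 rose (26.6%) and 3 fell (26.7%). Scd1, the stearoyl-CoA desaturase, rose by 3.19 ± 0.07 and was per length by far the most abundant member at day 7, at 6225 ± 501 CPM per kb of exon, followed by Scd2 at 1090 ± 98.2 and Dgat2 at 525.9 ± 25.8. Elovl6, which elongates palmitate, was called higher at no step, fell at both later ones, and stood at 0.905 ± 0.135 CPM per kb at day 7. Acsl1 and Agpat2, an acyltransferase that makes phosphatidic acid, were highest at day 2 and fell afterwards by 0.78 ± 0.05 and 0.58 ± 0.07.

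**Figure D1:**
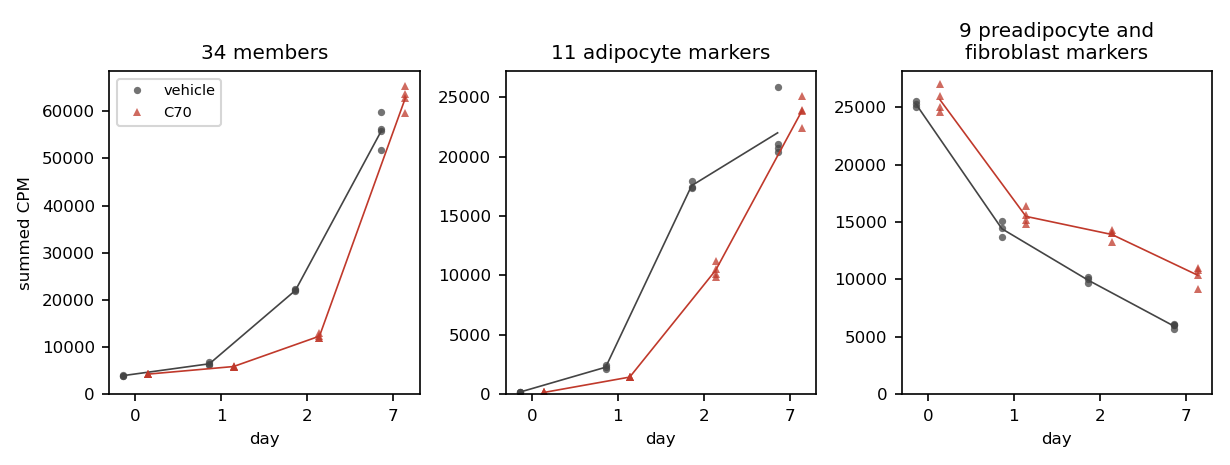
Summed CPM of the 34 members, of 11 adipocyte markers and of 9 preadipocyte and fibroblast markers in every sample (circles, vehicle; triangles, C70; lines join group means; days evenly spaced, linear axis from 0). At day 2 the members sum to 21811 to 22187 CPM in vehicle and 11949 to 12909 in C70. At day 7 they sum to 51699 to 59825 CPM in vehicle (mean 55870) and 59668 to 65390 in C70 (mean 62867), ranges that overlap only at their ends.

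At day 0, at the end of C70 exposure and before induction, few members differed. Of 34, 2 were lower (3.09% of all genes) and 2 higher (5.89% of all genes), and the members' median log2 fold change was 0.10 while that of all genes was near 0. This median was smaller after quantile normalisation and in some fits that left out 1 sample, with values given in the closing section. The members summed to 3794 to 4041 CPM in vehicle and 4205 to 4253 in C70, which did not overlap. Adipocyte markers summed to 161 to 163 CPM and 135 to 137, with Fabp4 and Pparg lower and Cebpa higher among 11, and preadipocyte and fibroblast markers to 25023 to 25565 and 24559 to 27052, with Thy1, Ly6a and Gata2 higher in C70 among 9 (33.3%, up to 1.33 on the log2 scale). Their part in these values was not tested. Elovl6 was at 50.6, 53.1 and 54.5 CPM in vehicle and 43.3, 37.8, 34.9 and 42.2 in C70, which did not overlap. Hacd2, a dehydratase of the elongation cycle, was at 80.8, 70.9 and 79.1 against 61.7, 54.5, 58.9 and 58.3. Their log2 fold changes were -0.41 ± 0.08 (edgeR adjusted P = 0.000168) and -0.40 ± 0.06 (1.37e-05).

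Lpin3 and Fads2 were the 2 higher members at day 0. Lpin3, a phosphatidate phosphatase of the lipin family, was at 2.90, 2.81 and 3.11 CPM in vehicle and at 7.34, 7.10, 6.30 and 7.35 in C70, a log2 fold change of 1.255 ± 0.12 (edgeR adjusted P = 4.08e-09). Every C70 sample lay above every vehicle sample. Fads2, the delta-6 desaturase, was at 193, 202 and 191 against 242, 244, 245 and 251, at 0.33 ± 0.05. The threshold is 0.322 on this scale, and the Fads2 call was lost on leaving out vehicle replicate 1 (0.320) or 3 (0.314) or C70 replicate 4 (0.318). It was also lost after quantile normalisation (0.293) and with a replicate block (0.312 for each day alone, 0.3195 over all samples). Fads1 was at 0.30 ± 0.06 and passed without vehicle replicate 2 (0.324), and Agpat2 at 0.31 ± 0.09, passing without vehicle replicate 1 (0.387), C70 replicate 3 (0.327) or C70 replicate 4 (0.343). Agpat2 also passed after quantile normalisation (0.330) and with the replicate block (0.340 and 0.342). The desaturases of saturated chains were not called, with Scd1 at 0.21 ± 0.07 and Scd2 at 0.07 ± 0.05.

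More members differed between the arms at day 1 than at day 0. In C70, 10 of 34 members were lower (7.8% of all genes) and 3 were higher (13.6% of all genes), with a members' median of -0.18 against -0.01 over all genes. The lower members included 5 of the 10 genes of glycerolipid assembly, Me1 of the 4 supply genes, and none of Acaca, Acacb and Fasn. Adipocyte markers summed to 2114 to 2413 CPM in vehicle and 1418 to 1445 in C70, preadipocyte and fibroblast markers to 13727 to 15049 and 14809 to 16402. In C70, 8 of 11 adipocyte markers were lower, and of 9 preadipocyte and fibroblast markers 5 were higher (Dlk1, Pdgfrb, Thy1, Ly6a and Gata2, up to 2.02) and Col1a1 was lower. Their part in these differences was not tested.

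Gpd1, which reduces dihydroxyacetone phosphate to glycerol 3-phosphate (chr15:99717515-99725005, GRCm38), had the largest fall of day 1. Its level was 13.3, 16.4 and 12.3 CPM in vehicle and 3.34, 3.00, 3.22 and 2.19 in C70, 4.79-fold lower (log2 -2.26 ± 0.15, edgeR adjusted P = 1.74e-13). At day 0 it had been at 0.779 to 1.53 CPM in vehicle and 1.31 to 1.64 CPM in C70. Agpat2 was at 106, 125 and 107 CPM against 52.6, 54.7, 55.8 and 53.3 (-1.06 ± 0.08). Dgat2 was at 100.3, 109 and 86.3 against 49.5, 46.5, 48.1 and 43.1 (-1.07 ± 0.08). Dgat1, the other enzyme of that last step, was at 93.4, 96.9 and 95.0 against 68.6, 66.2, 68.6 and 68.5 (-0.48 ± 0.06). Lpin1, the main adipose lipin, was at 259, 275 and 259 against 181, 188, 189 and 185 (-0.51 ± 0.06). In none of these 5 genes did the arms overlap.

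Acsl1 was at 629, 713 and 580.2 CPM in day 1 vehicle and at 261, 254, 278 and 250.1 in C70, a log2 fold change of -1.30 ± 0.05 (edgeR adjusted P = 3.19e-18). Elovl6 was at 62.3, 59.6 and 69.2 against 24.8, 22, 25.6 and 26.4, at -1.37 ± 0.08. The lowest vehicle sample was thus above the highest C70 sample for each of them. Thrsp (Spot 14), a small lipogenic protein that responds to carbohydrate and thyroid hormone, was at 4.20, 4.37 and 2.78 against 1.34, 1.62, 1.82 and 2.09, at -1.14 ± 0.23. Me1 was at 37.6, 40.7 and 38.8 against 28.9, 27.3, 27.1 and 27.1, at -0.50 ± 0.06. Hsd17b12, the ketoreductase of elongation, was at 106, 114 and 113 against 86.8, 84.6, 88.7 and 84.3, at -0.37 ± 0.05.

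The 3 members higher in C70 at day 1 were Acacb, Fads1 and Lpin3. Acacb, the acetyl-CoA carboxylase placed at mitochondria, was at 18.1, 17.05 and 17.4 CPM in vehicle and 27.5, 27.8, 27.1 and 26.96 in C70 (0.64 ± 0.10). Vehicle had fallen by 0.62 ± 0.10 from its day 0 range of 23.9 to 29.7 CPM, and C70 had been at 30.04 to 32.0 CPM at day 0. Fads1 was at 0.36 ± 0.06, and its call was lost without vehicle replicate 2 (0.317). Lpin3 was at 1.64, 1.03 and 1.65 against 7.29, 6.99, 8.44 and 6.72, 5.06-fold higher (2.34 ± 0.14). Scd1 was at 861, 985 and 826 against 1086, 1046, 1130.2 and 1099.6, above vehicle in all 4 samples though under the fold threshold (0.29 ± 0.07), and it passed without vehicle replicate 2 (0.37). So did Fads2 without vehicle replicate 1 (0.35) or C70 replicate 1 (0.324), and without vehicle replicate 3 Acly passed as lower (-0.34) and Agpat3 as higher (0.35).

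The test of the difference between the C70 effects at day 1 and day 0 called 13 members as lower at day 1 (5.23% of all genes) and 2 as higher (8.68% of all genes), with a median of -0.14. The largest were Gpd1 (-2.52 ± 0.31), Acsl1 (-1.55 ± 0.08), Agpat2 (-1.37 ± 0.12), Dgat2 (-0.97 ± 0.15) and Elovl6 (-0.96 ± 0.11). Acacb (0.44 ± 0.13) and Lpin3 (1.08 ± 0.20) went the other way. No desaturase differed between the days, their differences lying from -0.02 to 0.12. Thrsp, with its low counts at day 0, had -1.61 ± 0.68 and was not called (edgeR adjusted P = 0.0956).

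**Figure D2:**
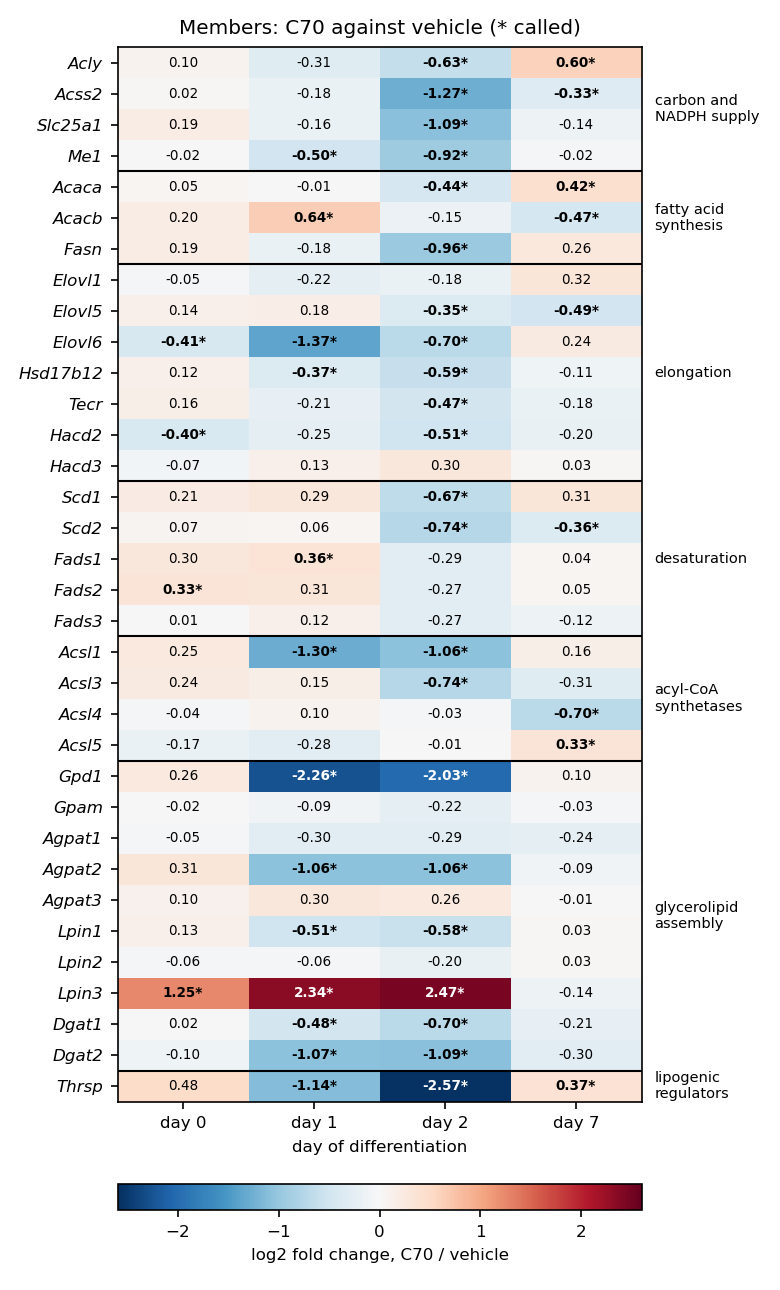
Log2 fold change of each member, C70 over vehicle, at days 0, 1, 2 and 7, grouped by role; an asterisk and bold type mark DEGs (adjusted P under 0.05 and log2 fold change beyond 0.322). Blue fills most of the day 2 column, where 21 members are lower, and Lpin3 stands out as red at days 0, 1 and 2.

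The largest number of calls was at day 2. In C70, 21 of 34 members were lower (13.6% of all genes) and 1 was higher (16.9% of all genes). The median was -0.55 while that of all genes was near 0, and 31 of 34 values were below 0. The members summed to 12289 ± 452 CPM in C70 (n = 4) and 21996 ± 188 in vehicle (n = 3). The count of 21 was found in all 29 fits that left out 1 sample. Beside this, the adipocyte markers summed to 9829 to 11209 CPM in C70 and 17309 to 17909 in vehicle, and the preadipocyte and fibroblast markers to 13221 to 14311 and 9642 to 10167. In C70, 9 of 11 and none of 9 of these markers were lower, and none of 11 and 7 of 9 higher. Their part in the members' difference was not tested.

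All 4 genes of carbon and NADPH supply were lower at day 2 (13.6% of all genes). Acss2 was at 65.6, 64.2 and 63.5 CPM in vehicle and 27.8, 27.6, 25.02 and 26.2 in C70, 2.42-fold lower (-1.27 ± 0.07, edgeR adjusted P = 1.33e-15). Slc25a1 was at 372, 382 and 394 against 180.4, 186, 179 and 175 (-1.09 ± 0.07). Me1 was at 163, 156 and 166 against 86.9, 88.2, 86.9 and 80.3 (-0.92 ± 0.05). Acly was at 297, 298 and 295 against 186, 190.1, 195 and 196 (-0.63 ± 0.09), and its C70 samples were still under their own day 0 range of 258 to 274 CPM. No arms overlapped in this group.

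Of fatty acid synthesis, Fasn was at 2699.6, 2726 and 2594 CPM in vehicle and 1348, 1379.8, 1405 and 1372 in C70, 1.94-fold lower (-0.96 ± 0.08, edgeR adjusted P = 5.92e-11). Acaca, the cytosolic carboxylase, was at 132, 143 and 125 against 95.9, 101, 99.5 and 95.2 (-0.44 ± 0.08). Acacb was not called, at 59.4, 62.6 and 57.8 against 51.3, 54.3, 56.3 and 53.9 (-0.15 ± 0.08). Thrsp had the largest fall of any member, from 97.1, 109.9 and 102 CPM in vehicle to 17.1, 21.1, 17.1 and 13.99 in C70, 5.96-fold lower (-2.57 ± 0.11, 4.99e-18). The highest C70 sample of Thrsp was far under the lowest vehicle sample.

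Of the 7 chain-lengthening genes, 5 were lower (13.6% of all genes). Elovl6 was at 31.9, 31.1 and 34.9 CPM against 19.9, 21.8, 17.4 and 21.3 (-0.70 ± 0.08), Hsd17b12 at 292, 277 and 297 against 191, 191, 191 and 192 (-0.59 ± 0.05), and Hacd2 at 529, 529 and 549.5 against 366, 393, 370.4 and 372 (-0.51 ± 0.06). Tecr, the enoyl reductase, was at -0.47 ± 0.06, and Elovl5, which elongates polyunsaturated chains, at 86.9, 85.6 and 85.9 against 67.8, 69.97, 64.3 and 68.9 (-0.35 ± 0.06). Elovl1 (-0.18 ± 0.06) and Hacd3 (0.30 ± 0.05) stayed inside the fold threshold, and Hacd3 passed it as higher without vehicle replicate 1 or C70 replicate 2 (0.330 and 0.328).

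Among desaturases, Scd1 was at 3246, 3488 and 3294 CPM in vehicle and 2003, 2353, 2125 and 1948 in C70 (-0.67 ± 0.07), and Scd2 at 2784, 2877 and 2835 against 1654, 1769, 1729.9 and 1652 (-0.74 ± 0.05). Both were lower without overlap. Fads1, Fads2 and Fads3 lay between -0.29 and -0.27 and were not called, though every C70 sample was under every vehicle sample. Of the acyl-CoA synthetases, Acsl1 was at 6599.5, 6594 and 6705 against 3066, 3332, 3163 and 3122 (-1.06 ± 0.05) and Acsl3 at 32.4, 32.3 and 35.5 against 20.9, 21.4, 17.9 and 19.6 (-0.74 ± 0.06). Acsl4 (-0.03 ± 0.09) and Acsl5 (-0.01 ± 0.06) overlapped between arms.

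In glycerolipid assembly 5 of 10 members were lower (13.6% of all genes) and 1 was higher (16.9% of all genes). Gpd1 was at 741, 766 and 735 CPM in vehicle and 176, 225, 174 and 159.9 in C70, 4.07-fold lower (-2.03 ± 0.09, edgeR adjusted P = 4.19e-18). Agpat2 was at 725, 683 and 719 against 331, 358, 335 and 331 (-1.06 ± 0.08), while Agpat1 (-0.29 ± 0.05) and Agpat3 (0.26 ± 0.05) were not called. Lpin1 was at 559.7, 586 and 569 against 379.8, 385, 390.3 and 375 (-0.58 ± 0.06), while Lpin2 was at -0.20 ± 0.07. Lpin3 was higher, at 0.900, 1.11 and 0.921 against 6.72, 4.84, 4.73 and 5.48 (2.47 ± 0.16), a 5.54-fold difference on a low level. Dgat2 was at 648, 664 and 704 against 308, 346, 307 and 299 (-1.09 ± 0.07) and Dgat1 at 306, 301 and 312 against 181, 195, 189 and 189 (-0.70 ± 0.06). Gpam, which makes the first acylation of glycerol 3-phosphate, was at 185, 191 and 184 against 161, 154, 166 and 159 (-0.22 ± 0.07) and was not called.

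**Figure D3:**
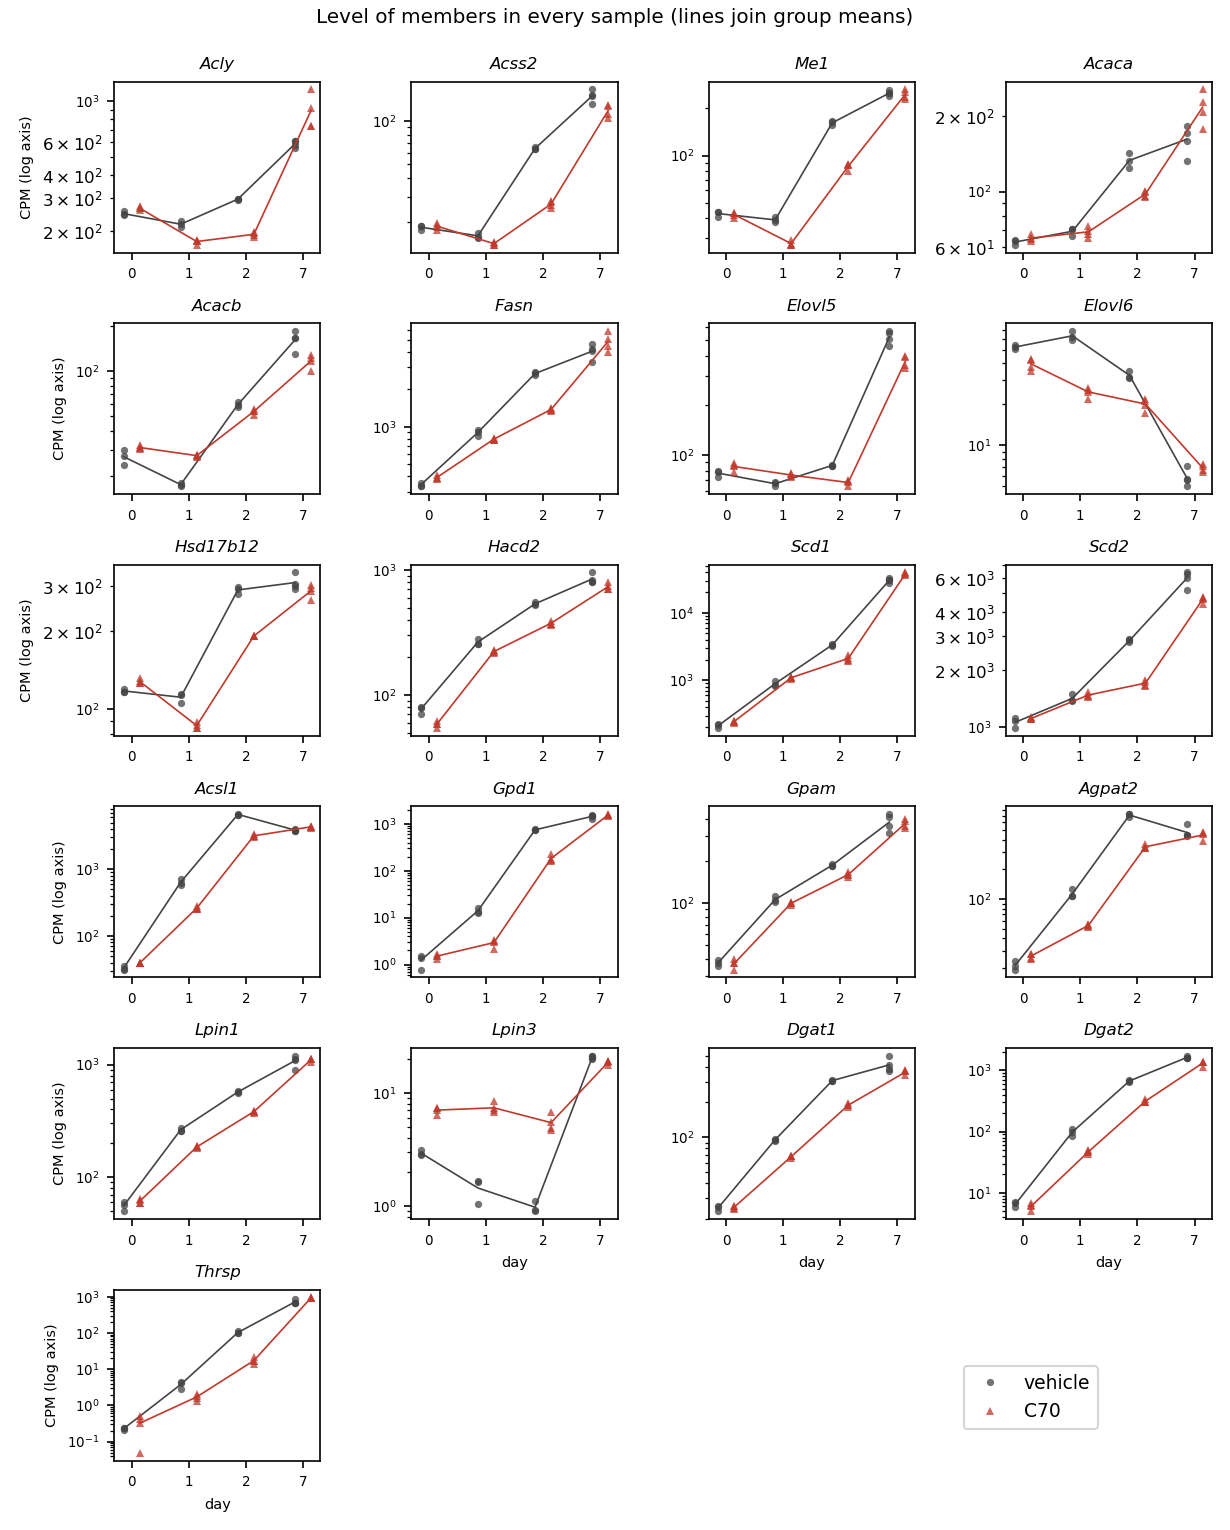
CPM on log axes of 21 members in every sample at days 0, 1, 2 and 7 (circles, vehicle; triangles, C70; lines join group means; days evenly spaced). At day 2 the C70 samples lie under the vehicle samples in each panel except that of Lpin3, where they lie above.

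The share of the normal climb that C70 cells had made by day 2 was set out for the 18 members whose vehicle mean was over 2-fold higher at day 2 than at day 0. It was taken as the C70 day 2 mean less the vehicle day 0 mean, over the vehicle rise, and is given as a description with no test. Thrsp had reached 16.6%, Acss2 17.8%, Gpd1 24.4% and Slc25a1 32.0%. Fasn stood at 44.4%, Agpat2 at 46.2%, Dgat2 at 46.4% and Acsl1 at 47.5%. The highest were Lpin1 at 63.4%, Hacd2 at 65.0%, and Gpam and Acacb, both at 82.0%.

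At day 7, 5 members were lower in C70 (4.85% of all genes) and 4 higher (14.3% of all genes), with a median of -0.03 while that of all genes was near 0. None of the 10 genes of glycerolipid assembly was called. At an adjusted P under 0.05 without the fold threshold, 3 of these 10 passed, all lower in C70 (18.8% of all genes were lower at that threshold), namely Agpat1, Dgat1 and Dgat2. Gpd1 was at 1547, 1495, 1461 and 1302 CPM in vehicle and 1552, 1582, 1619 and 1463 in C70 (0.10 ± 0.08), and Lpin1 at 902, 1199, 1126 and 1109.7 against 1129, 1047, 1119.7 and 1121 (0.03 ± 0.06). Gpam (-0.03 ± 0.06) and Agpat2 (-0.09 ± 0.07) overlapped too. Lpin3 stood at 19.7 to 21.2 CPM in vehicle and 17.5 to 19.2 in C70 (-0.14 ± 0.08). Dgat2 was at 1737, 1571, 1566 and 1611 against 1369.6, 1373, 1375 and 1146, lower in all 4 samples but under the fold threshold (-0.30 ± 0.07), and it passed without C70 replicate 3 (-0.323). It also passed after quantile normalisation (-0.332).

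The 4 higher members of day 7 were Acly, Acaca, Thrsp and Acsl5. Acly was at 556, 606, 583 and 609 CPM in vehicle and 924, 737, 739 and 1158 in C70, 1.51-fold higher (0.60 ± 0.08, edgeR adjusted P = 4.51e-07), without overlap. For each gene the fit shared its dispersion over all 8 groups, so SE and adjusted P at day 7 also rest on the earlier days. In C70, Acly was at 168.4 ± 37.73 CPM per kb (SD) at day 7 and 36.34 ± 0.8469 at day 2. Acaca was at 133, 182, 171 and 159.5 against 227, 178, 206 and 255 (0.42 ± 0.08), and C70 replicate 2 lay inside the vehicle range. Thrsp was at 885, 686, 656 and 659.8 against 964, 942, 911 and 920.1 (0.37 ± 0.09), and the call was lost with limma-trend (0.38, adjusted P = 0.215) and after quantile normalisation (0.29, adjusted P = 0.137). Acsl5 was at 42.2, 37.2, 36.0 and 33.7 against 48.0, 47.7, 46.0 and 46.1 (0.33 ± 0.05), and its call was lost without vehicle replicate 3 (0.316) or 4 (0.288) or C70 replicate 1 (0.3217, against the threshold of 0.322), and in a separate fit of day 7 (0.321). Acsl5 overlaps Zdhhc6 on the opposite strand.

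Fasn and Scd1 lay just inside the fold threshold at day 7. Fasn was at 3329, 4578, 4171 and 4089 CPM against 5067, 4013, 4455 and 5880.3 (0.26 ± 0.08), and the arms overlapped. Scd1 was at 27317, 33301, 30542 and 30658 against 39504, 35819, 38226 and 37338, above vehicle in all 4 samples (0.31 ± 0.06). Both became DEGs without vehicle replicate 2 (0.33 and 0.35) or without C70 replicate 2 (0.35 and 0.34). Fasn was at 0.16 without C70 replicate 4 (edgeR adjusted P = 0.0796), and after quantile normalisation Fasn was at 0.09 and Scd1 at 0.10 (limma-trend adjusted P = 0.558 and 0.304). The count of higher members of day 7 went from 4 to 7 without vehicle replicate 2. Elovl1, which overlaps Cdc20 on the opposite strand, was likewise just inside (0.32 ± 0.05) and passed without vehicle replicate 1 (0.39) or 4 (0.3223) or without C70 replicate 1 (0.333) or 3 (0.323). Elovl1 also passed with limma-voom (0.379), over genes with a mean of 5 CPM or more (0.326), and without vehicle replicate 1 and C70 replicate 2 together (0.371). Elovl6 was not called, at 0.24 ± 0.12 (edgeR adjusted P = 0.113), passed as higher without vehicle replicate 2 (0.34), and was at 0.07 after quantile normalisation (limma-trend adjusted P = 0.56). Acsl3, at -0.31 ± 0.05, passed as lower without C70 replicate 1 (-0.34).

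The 5 lower members at day 7 came from different steps. Acsl4, an arachidonate-preferring acyl-CoA synthetase, was at 68.1, 109.7, 104 and 88.0 CPM in vehicle and 60.0, 53.5, 56.1 and 57.8 in C70, 1.63-fold lower (-0.70 ± 0.09, edgeR adjusted P = 9.61e-08), and was not called at day 0, 1 or 2. Elovl5 was at 458, 556, 569 and 509 against 395, 401, 339 and 354 (-0.49 ± 0.06). Acacb was at 129.5, 186, 166 and 167 against 123, 101, 117 and 128 (-0.47 ± 0.07). Scd2 was at 5200.4, 6400.4, 6265 and 5968 against 4718, 4388, 4649.8 and 4777 (-0.36 ± 0.05). Vehicle replicate 1, which stood apart, was the lowest vehicle sample of Acsl4, Elovl5, Acacb and Scd2. All arms were separate. Acss2 was at 165, 149, 129.9 and 150.5 against 129, 112, 104 and 127 (-0.33 ± 0.06), and fell short of the threshold without vehicle replicate 1 (-0.27), C70 replicate 2 (-0.30) or C70 replicate 3 (-0.28). The Acss2 call was also lost with limma-voom (-0.21), after quantile normalisation (-0.319) and over genes with a mean of 5 CPM or more (-0.320).

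**Figure D4:**
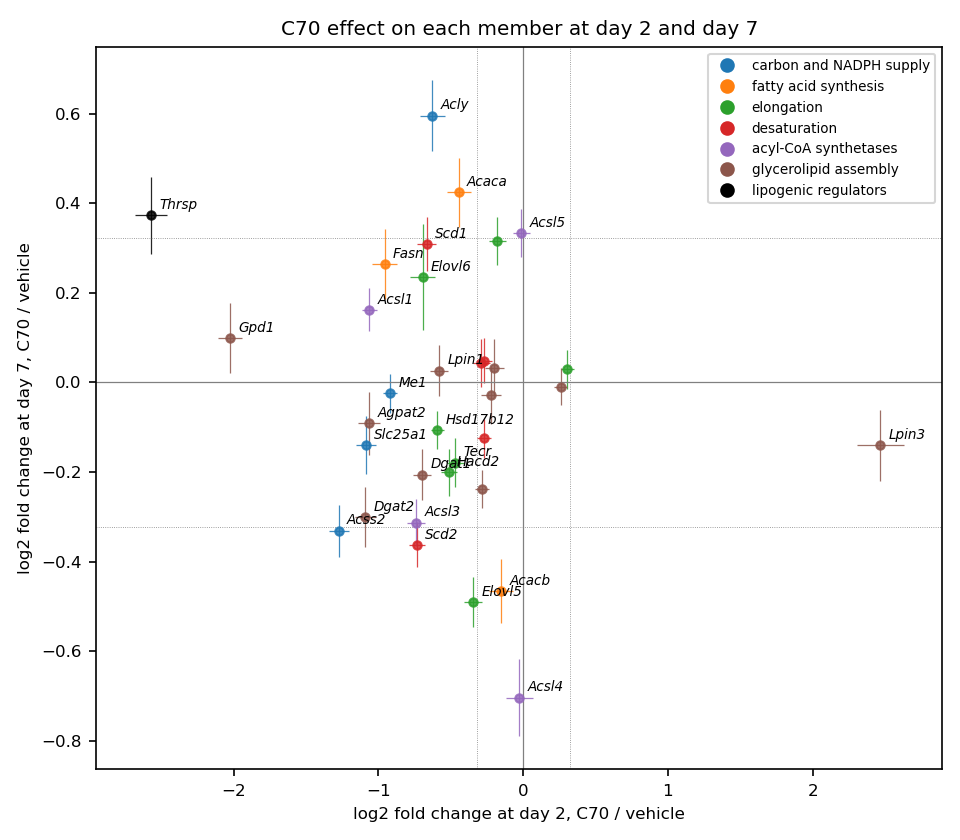
Log2 fold change, C70 over vehicle, at day 2 (horizontal) and day 7 (vertical) for the 34 members, coloured by role; bars are SE, dotted lines mark 0.322 on either side of 0, and members called at either day are named. Most points lie left of 0 at day 2 and between the dotted lines at day 7, with Acly, Acaca and Thrsp in the upper left and Acss2, Scd2 and Elovl5 in the lower left.

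The C70 effect at day 7 was tested against that at day 2. It was higher at day 7 in 21 members (11.9% of all genes) and lower in 2 (9.04% of all genes), with a median difference of 0.46 against 0.01 over all genes. The largest were Thrsp (2.95 ± 0.14), Gpd1 (2.12 ± 0.12), Acsl1 (1.23 ± 0.07), Acly (1.23 ± 0.12) and Fasn (1.22 ± 0.12). Acsl4 (-0.68 ± 0.13) and Lpin3 (-2.61 ± 0.18) were the 2 that went down. Acacb (-0.31 ± 0.11) and Elovl5 (-0.14 ± 0.08) did not shift by enough to be called, and Gpam moved by 0.20 ± 0.09. Adipocyte markers at day 7 summed to 20348 to 25887 CPM in vehicle and 22433 to 25065 in C70, which overlapped. The preadipocyte and fibroblast markers remained higher in C70, at 9191 to 11024 against 5653 to 6100, with 8 of 9 called higher (88.9%). Of 11 adipocyte markers 2 were called higher (18.2%, Adipoq and Cd36), a share near the 14.3% of all genes at day 7. The part of these markers in the members' values was not tested.

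Ratios within a sample were set out for 4 pairs of enzymes, chosen after the values were seen and given with no test. Scd1 to Scd2 was higher in every C70 sample than in every vehicle sample at day 0 (0.198 to 0.200 in vehicle and 0.214 to 0.221 in C70), at day 1 (0.593 to 0.661 and 0.728 to 0.757) and at day 7 (4.88 to 5.25 and 7.82 to 8.37), and the arms overlapped at day 2 (1.16 to 1.21 and 1.18 to 1.33). Acaca to Acacb overlapped at day 0 (2.14 to 2.68 and 2.06 to 2.18), was lower in C70 at day 1 (3.82 to 4.18 and 2.38 to 2.63) and day 2 (2.16 to 2.28 and 1.76 to 1.87), and was higher in C70 at day 7 (0.958 to 1.03 and 1.76 to 1.99). Acly to Acss2, the enzymes that make acetyl-CoA from citrate and from acetate, overlapped at day 0 (12.9 to 13.9 and 13.4 to 15.5) and day 1 (12.3 to 14.4 and 12.1 to 12.7). It was higher in C70 at day 2 (4.53 to 4.64 and 6.72 to 7.78) and day 7 (3.37 to 4.48 and 6.57 to 9.13). Dgat1 to Dgat2 was higher in C70 at day 1 (0.891 to 1.10 and 1.39 to 1.59) and day 2 (0.443 to 0.473 and 0.564 to 0.632), and overlapped at day 0 (3.32 to 4.41 and 3.71 to 4.88) and day 7 (0.238 to 0.289 and 0.249 to 0.320). These are ratios of CPM and show unequal change only.

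**Figure D5:**
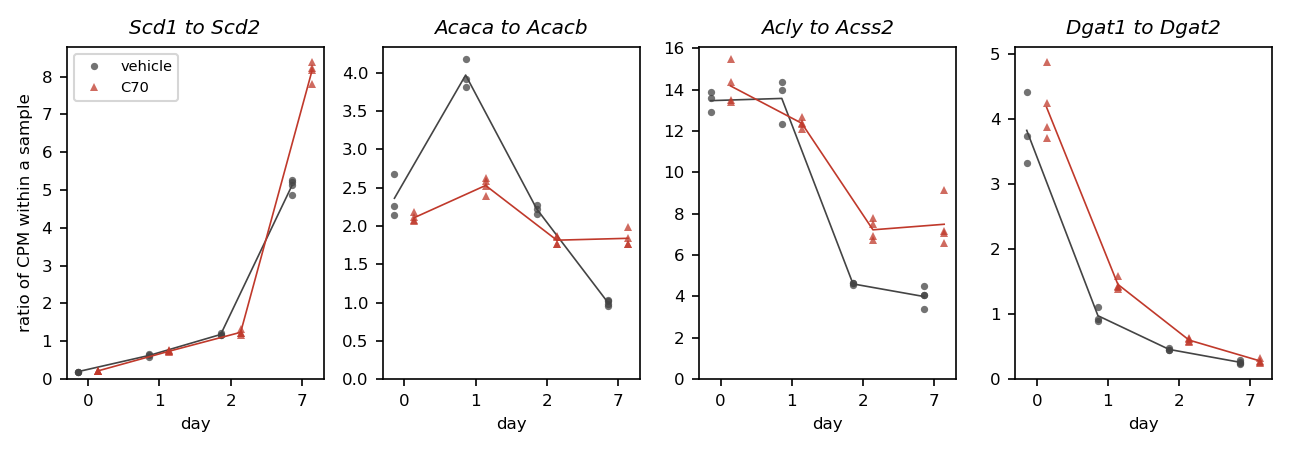
Ratio of CPM within each sample for Scd1 to Scd2, Acaca to Acacb, Acly to Acss2 and Dgat1 to Dgat2 (circles, vehicle; triangles, C70; lines join group means; linear axes from 0, days evenly spaced). At day 7 the first 3 ratios separate the arms and the last does not.

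Across the 4 days, 3 members were DEGs at 3 days (Elovl6, Lpin3 and Thrsp), 15 at 2 days, 9 at 1 day and 7 at none (Elovl1, Hacd3, Fads3, Gpam, Agpat1, Agpat3 and Lpin2). At least 1 day was called for 79.4% of members and 44.5% of all genes, at least 2 days for 52.9% and 23.3%, and at least 3 days for 8.82% and 9.78%. Acly, Acaca, Acacb and Thrsp were called in both directions on different days. The members lie on 16 chromosomes, with Scd1 at chr19:44394455-44407879 and Scd2 at chr19:44293674-44306864 (GRCm38). A gene on the same strand overlaps 11 members, Acsl3 (Utp14b) among them. A gene on the opposite strand overlaps 16 members. These are Acss2, Me1, Acaca, Acacb, Elovl1, Elovl6, Tecr, Hacd2, Acsl1, Acsl5, Gpd1, Gpam, Agpat1, Agpat2, Agpat3 and Lpin3. The libraries were strand-specific, but whether counting used strand was not given in the sources used here, so such values are uncertain.

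Related lists were read by the same test at day 2 and day 7. Of all genes, 13.6% were lower and 16.9% higher at day 2, and 4.85% and 14.3% at day 7, with medians near 0. Of 15 sterol and carbohydrate response regulators in the table, 4 were lower at day 2 (26.7%) and none higher, and 2 were lower at day 7 (13.3%), with medians of -0.14 and -0.08. Insig1, the sterol-regulated retention protein of the SREBP pathway, was at -1.62 ± 0.06 and then -0.48 ± 0.05, and Mid1ip1, a partner of Thrsp that promotes acetyl-CoA carboxylase polymerisation, at -0.66 ± 0.05 and then 0.27 ± 0.04, the latter not called. Srebf1 itself was at -0.12 ± 0.06 and 0.09 ± 0.05 and was not called at either day, a gene singled out after its values were seen. Of 11 pentose phosphate and NADPH enzymes, 6 were lower at day 2 (54.5%) and 1 higher (9.09%), and 2 were lower at day 7 (18.2%), with medians of -0.37 and -0.11. Transketolase, Tkt, was at -1.15 ± 0.05 and -0.53 ± 0.05, Taldo1 at -0.79 ± 0.07 and -0.38 ± 0.06, and the mitochondrial Idh2 at 0.69 ± 0.06 and 0.18 ± 0.06.

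Of 17 further lipid synthesis enzymes, 7 were lower (41.2%) and 4 higher (23.5%) at day 2, with a median of -0.24. At day 7, 1 was lower (5.88%) and 3 higher (17.6%), shares near the 4.85% and 14.3% of all genes, with a median of 0.07. The dicarboxylate carrier Slc25a10 was at -1.08 ± 0.06 at day 2 and 0.11 ± 0.06 at day 7, and Gpat3, another glycerol 3-phosphate acyltransferase, at -0.68 ± 0.07 and -0.02 ± 0.07. Hacd4 was higher at both, at 0.73 ± 0.14 and 0.82 ± 0.15. Of 17 genes of the phospholipid branch, 3 were lower (17.6%, near the 13.6% of all genes) and 1 higher (5.88%) at day 2, and 1 was lower at day 7 (5.88%), with medians of -0.18 and -0.10. Pemt was at -0.82 ± 0.18 at day 2, Chpt1 at -0.65 ± 0.09, and Pcyt2 at -0.60 ± 0.06 with -0.47 ± 0.05 at day 7. Of 8 genes that restrain acetyl-CoA carboxylase or its product, 1 was lower at day 2 (12.5%; Mlycd, malonyl-CoA decarboxylase, -0.44 ± 0.08) and none was called at day 7, with medians of -0.12 and -0.11.

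At day 0, 3.09% of all genes were lower and 5.89% higher. In these lists, 1 of 15 regulators (6.67%) and 1 of 17 further enzymes (5.88%) were higher, shares near that of all genes. Of 11 pentose phosphate and NADPH enzymes 2 were lower (18.2%), of 17 phospholipid genes 1 was lower (5.88%), and none of the 8 genes that restrain the carboxylase was called. At day 1, against 7.8% lower and 13.6% higher among all genes, 2 of 15 regulators were lower (13.3%), and 3 of 17 further enzymes were lower (17.6%) and 2 higher (11.8%). Of 11 pentose phosphate and NADPH enzymes 6 were lower (54.5%) and 1 higher (9.09%), of 17 phospholipid genes 1 was lower (5.88%), and of 8 genes that restrain the carboxylase 1 was higher (12.5%).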

How the data were processed

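RNA-seq was read in 29 samples of 8 groups, with sample totals of 16320275 to 24037170. The authors aligned strand-specific libraries with STAR 2.7.2a to GRCm38 and deposited whole-number counts per gene, unscaled although the table is named normalized. The submitters' processing notes name edgeR 3.26.8, and the counting program, strand setting and gene filter were not given in the sources used here. Symbols were found for 11953 of 11959 genes. Intervals were not computed, and precision is given as SE or SD. The SD is over samples. The SE of a log2 fold change was derived from edgeR's quasi-likelihood test, with dispersion shared over all 8 groups.

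Counts were scaled by TMM and fitted as 8 group means with edgeR 4.0.16 (R 4.3.3, quasi-likelihood, two-sided, Benjamini-Hochberg over all genes). DEGs had an adjusted P under 0.05 and a fold change over 1.25. On simulated counts for day 2, 95% of 1.5-fold and 96% of 2-fold changes were recovered, with 4 false calls among the unchanged genes. In that simulation each gene had the same mean share of counts in all groups. Only 100 genes were changed 1.5-fold and 100 changed 2-fold, in day 2 C70. These rates therefore do not describe genes at their own day 2 levels. Per-sample values were given for members called on 2 or more days and for Fasn, Acaca, Scd1, Scd2, Dgat1, Dgat2, Lpin1 and Gpam. They were added, after the values were seen, for Slc25a1, Acsl3, Acsl4, Acsl5 and Fads2, each called on 1 day. Other members were given by fold change or range, and related lists by up to 3 called genes with the largest change. Members and lists were chosen with earlier results of these data known. Alternatives covered DESeq2 1.42.0, limma 3.58.1, filters, thresholds, a replicate block and leaving out samples. Promoters and gene positions came from RefSeq and GENCODE M21 on GRCm38.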

Additional observations from a re-analysis of the deposited data

Results flagged for a closer look

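In groups of 4 samples, 10 values lay far from the other 3 by Dixon's criterion, of 170 groups tested, where chance gives about 8.5 (1 in 20). In day 7 vehicle replicate 1, the sample that stood apart across all genes, Agpat2 was at 569 CPM (the others at 437 to 449), Thrsp at 885 CPM (656 to 686) and Lpin2 at 40.8 CPM (43.7 to 43.9). Among the day 7 C70 samples, Lpin1 was at 1047 CPM in replicate 2 (1119.7 to 1129), Slc25a1 at 537 CPM in replicate 3 (591 to 599) and Dgat2 at 1146 CPM in replicate 4 (1369.6 to 1375). In the earlier C70 samples, Acsl1 was at 39.8 CPM in day 0 replicate 1 (38.9 to 39.0), Me1 at 28.9 CPM in day 1 replicate 1 (27.1 to 27.3), Dgat1 at 66.2 CPM in day 1 replicate 2 (68.5 to 68.6) and Agpat2 at 358 CPM in day 2 replicate 2 (331 to 335).

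In edgeR's test of the difference between the C70 effects at day 1 and day 0, 5.23% of all genes were lower and 8.68% higher. The C70 effect differed in 15 members. Besides Gpd1 (-2.52), Acsl1 (-1.55), Agpat2 (-1.37), Dgat2 (-0.97) and Elovl6 (-0.96), it was lower at day 1 in Lpin1 (-0.64), Dgat1 (-0.50), Hsd17b12 (-0.49), Me1 (-0.48), Acly (-0.41), Fasn (-0.37), Tecr (-0.37) and Slc25a1 (-0.35). It was higher in Lpin3 (1.08) and Acacb (0.44).

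For day 7 against day 2, the C70 effect was higher at day 7 in 11.9% of all genes and lower in 9.04%. It differed in 23 members. It was higher at day 7 in Thrsp (2.95), Gpd1 (2.12), Acsl1 (1.23), Acly (1.23), Fasn (1.22), Scd1 (0.97), Agpat2 (0.97), Slc25a1 (0.95), Acss2 (0.94), Elovl6 (0.93), Me1 (0.89) and Acaca (0.87). Smaller differences of the same direction were found in Dgat2 (0.79), Lpin1 (0.61), Elovl1 (0.49), Dgat1 (0.49), Hsd17b12 (0.49), Acsl3 (0.43), Scd2 (0.37), Acsl5 (0.35) and Fads1 (0.33). It was lower in Acsl4 (-0.68) and Lpin3 (-2.61).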

How the results depend on the processing

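Under 42 alternative settings, no called value changed direction, while 44 of 3623 values of members that were never called changed sign. At an adjusted P alone, counts of members, each with the share of all genes, were 7 higher at day 0 (10.9%), 16 lower (19.7%) and 9 higher (21%) at day 1, 3 higher at day 2 (25.3%), and 13 lower (18.8%) and 8 higher (22.3%) at day 7. In vehicle they were 12 lower from day 0 to day 1 (35.1%), 6 lower from day 2 to day 7 (36.3%) and 6 lower from day 0 to day 7 (42.3%), and for the differences of effects 4 higher for day 1 minus day 0 (11.1%) and 5 lower for day 7 minus day 2 (13.9%). With a fold change over 1.5 they were 0 lower (0.527%) and 1 higher (2.75%) at day 0, 6 lower at day 1 (1.64%), 1 lower (0.87%) and 1 higher (7.93%) at day 7, 1 lower from day 1 to day 2 (12.4%), and 6 lower (1.55%) and 1 higher (4.04%) for day 1 minus day 0. Quantile normalisation gave members' medians of 0.0476 at day 0, and in vehicle 0.90 from day 1 to day 2, 0.66 from day 2 to day 7 and 2.40 from day 0 to day 7. It also gave splits over all genes of 1319 lower and 1369 higher at day 1 (933 and 1631 in the reported fit) and 831 and 1274 at day 7 (580 and 1707). Limma-voom gave medians of 0.71 from day 2 to day 7 and 2.57 from day 0 to day 7, and leaving out day 7 vehicle replicate 1 and C70 replicate 2 together gave 2.56 for the latter. The causes were not tested.

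Leaving out each of the 29 samples gave 1 to 3 higher members and a median of 0.0633 to 0.11 at day 0, 1 to 2 higher at day 2, 3 to 7 higher at day 7 (7 without vehicle replicate 2), a median of 2.48 to 2.56 for vehicle day 7 against day 0, and 1 to 2 higher for day 1 minus day 0. Members lower for day 1 minus day 0 ranged from 10 (without day 1 vehicle replicate 2) to 14. Members lower at day 7 ranged from 4 to 6, and those higher for day 7 minus day 2 from 20 to 24. Samples of the same number correlated in their deviations at -0.205 to 0.214 over 13 pairs, so the numbers were not taken to pair samples. Separate fits of each day with a replicate block gave 2 higher members at day 2, with Hacd3 added (0.325), and 21 lower. At day 0 the block removed Fads2 (0.312, or 0.3195 with all days fitted together) and added Agpat2 (0.340 and 0.342), and it added Acly at day 1 as lower with all days together (-0.349). Acsl3 at day 7 was called lower in the separate fit without the block (-0.324) and with it (-0.325). Lpin3 and Thrsp at their lowest levels rest on few counts, which limits those fold changes.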
